A study of Homo sapiens with 16 samples.

Results

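The genes described here encode chaperones, folding enzymes, translocation machinery, degradation factors and stress sensors of the endoplasmic reticulum (ER), the compartment in which secreted and membrane proteins are folded. They were chosen by name as 42 genes of the ER chaperone and secretory pathway, and each was read on the brightest probe set that the platform annotation gives to 1 gene only. Of the 42, 40 were measured among 18132 genes of the array, while TXNDC5 and KDELR2 were not analysed here because no probe set named either of them alone. No measured value entered the choice of the list, but it was made with earlier results of these data known.

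The arrays came from Nalm6, an established human cell line of B-cell precursor acute lymphoblastic leukaemia, in 4 groups of 4 arrays. Cells whose label names active, overexpressed CASP1, an inflammatory caspase, received prednisolone for 24 hours or no treatment, and control cells likewise received prednisolone for 24 hours or no treatment. Prednisolone is a synthetic glucocorticoid that activates the glucocorticoid receptor, and the sample labels spell the treatment as a form of prednisone while the protocol says prednisolone. Its dose, the vector and promoter behind CASP1, the number of clones, and what the control cells carry are not stated in these sources. The series title asks whether CASP1 makes leukaemia cells resistant to glucocorticoids by cleaving their receptor, and the comparisons below describe ER genes within that design.

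Proteins enter the ER through the SEC61 channel, lose their signal peptide, and fold with the help of the HSP70-type chaperone HSPA5, the HSP90-type chaperone HSP90B1, sugar-binding lectins and disulfide isomerases. Misfolded proteins are sent back to the cytosol for degradation. When unfolded proteins build up, the sensors ERN1, ATF6 and EIF2AK3 start the unfolded protein response, which raises chaperone transcription. In the B lineage this machinery is known for its large expansion when cells become antibody-secreting plasma cells, under the transcription factor XBP1.

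Chaperone genes are known to carry ER stress elements before their start sites, and these sequences are shown because several members that were lower together in treated cells labelled CASP1 hold them. Windows from 250 bases before to 50 bases after the first listed start were taken from the RefSeq promoter table (GRCh38.p14), which held one for 36 of the 40 measured members. Both strands were searched for the ER stress element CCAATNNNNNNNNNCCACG, known as the site of ATF6 with NF-Y, for the element of the second type (ATTGG and CCACG with 1 base between them), and for TGACGTGG, the core of the unfolded protein response element. The sites of the first type follow, each read 5′ to 3′ on the strand that holds it, with 10 flanking bases on both sides and with the fixed letters of the element in capitals.
HSPA5, chr9:125241381-125241419, minus strand: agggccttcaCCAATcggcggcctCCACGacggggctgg
HSP90B1, chr12:103930206-103930244, plus strand: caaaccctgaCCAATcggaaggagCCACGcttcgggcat
HSP90B1, chr12:103930311-103930349, minus strand: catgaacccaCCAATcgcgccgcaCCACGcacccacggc
CALR, chr19:12938374-12938412, minus strand: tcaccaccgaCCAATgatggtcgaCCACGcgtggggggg
CANX, chr5:179698768-179698806, plus strand: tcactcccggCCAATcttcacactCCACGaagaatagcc
CRELD2, chr22:49918544-49918582, minus strand: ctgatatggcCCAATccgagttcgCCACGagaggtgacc

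The sites of the second type are shown in the same way, and they lie in members that act with HSPA5 or in degradation.
HYOU1, chr11:119057264-119057294, plus strand: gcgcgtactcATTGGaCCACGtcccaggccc
HYOU1, chr11:119057370-119057400, plus strand: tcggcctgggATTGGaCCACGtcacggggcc
HERPUD1, chr16:56932015-56932045, plus strand: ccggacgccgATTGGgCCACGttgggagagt
SDF2L1, chr22:21642104-21642134, minus strand: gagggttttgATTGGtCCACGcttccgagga

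The element of the first type was found in 5 of 36 members (13.9%), against 22 of 27305 windows of all genes (0.0806%). The second type was found in 3 members (8.33%) and in 0.0549% of all windows, and the core TGACGTGG in HYOU1 and TXNDC11 (5.56%), against 0.795% of all windows. In HYOU1 the core overlaps one of the second-type sites. When every listed start of a gene was searched, the first type was also found in PDIA6, which gave 6 of 36 members and 25 of 27305 genes (0.0916%). That search also found the core TGACGTGG in SSR3, which gave 3 of 36 members and 253 of 27305 genes (0.927%). The CANX window lies at a start inside the gene. A match describes letters in this window and is no evidence of binding. The 250 bases before the HSPA5 start are shown with the whole first-type match in capitals, since HSPA5 had the largest difference between the treated lines.
HSPA5, chr9:125241344-125241593, minus strand: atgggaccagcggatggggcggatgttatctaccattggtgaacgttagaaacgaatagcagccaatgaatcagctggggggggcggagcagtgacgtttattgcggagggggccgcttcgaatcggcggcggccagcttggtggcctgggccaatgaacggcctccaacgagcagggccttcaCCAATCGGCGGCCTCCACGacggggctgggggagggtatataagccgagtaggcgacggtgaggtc

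Each array gave 49395 probe sets with log2 signals between 1.69 and 14.28 and array medians between 4.85 and 4.93, and the number of arrays limits the precision. Nothing in the labels ties the arrays to separate cultures, and the p-values therefore cover the spread among these arrays, which may be technical. CASP1 signal went against its label, with group means of 5.02 in treated and 5.69 in untreated cells labelled CASP1, against 6.95 in treated and 7.75 in untreated control cells. The lines are therefore named by their labels throughout (cells labelled CASP1 and control cells). Whether the 2 labels were exchanged, or the probe set does not read the introduced transcript, was not tested. If they were exchanged, every difference between the lines and every interaction given here would turn its sign. NR3C1, the glucocorticoid receptor, lay between 10.88 and 11.19 in treated and between 9.96 and 10.24 in untreated cells labelled CASP1, against 11.39 to 11.49 in treated and 9.93 to 10.29 in untreated control cells. The 11 measured B-precursor markers had a median gene mean of 11.65 and all lay above the median gene, and the medians of T and NK cell, myeloid, erythroid and stroma markers were between 3.56 and 4.14. In RNA from whole cultures, fewer cells with a transcript and less of it per cell cannot be told apart. The arrays numbered 1 stood apart, with correlations across probe sets of 0.9853 to 0.9940 to the other arrays of their group, whereas each other array had a partner at 0.9962 or higher. Counts without these 4 arrays are therefore given beside the main ones.

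Between the treated lines the ER genes were mostly lower in cells labelled CASP1. Of the 40 members, 20 were lower and 2 higher there, which is 55% of them, while 16.4% of all genes were called in that comparison, 7.88% higher and 8.52% lower. The lower members included HSPA5 at 2.29-fold, MANF and SDF2L1 at 1.99-fold each, SEC11C at 1.82-fold, CALR at 1.81-fold and PDIA4 at 1.80-fold. The median over all 40 was -0.30 on the log2 scale, against 0.045 over all genes, and 30 of the 40 were below 0. A call here means an adjusted p under 0.05 in limma, with Benjamini-Hochberg adjustment across the 18132 genes. No member was among the dimmest 30% of genes, and ERN1, the dimmest member, had 39.1% of genes below it. Without those dim genes more genes were called in every comparison, here 1492 higher and 1651 lower against 1429 and 1545. The share called among brighter genes was therefore larger than the share of all genes given for each comparison with all arrays. Without the arrays numbered 1 there were 23 calls, 22 lower and 1 higher, of which 19 were shared with the main result, and the share of all genes called was 22.4%.

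In the untreated lines fewer members differed. SEC11C was 2.05-fold, SDF2L1 1.83-fold, PDIA4 1.52-fold and HSPA5 1.45-fold lower in cells labelled CASP1, and SSR3 was 1.35-fold higher. In all, 8 members were lower and 1 was higher (22.5%), while 14.1% of all genes were called, 5.87% higher and 8.2% lower. Without the dimmest 30% of genes 1121 genes were higher and 1598 lower, against 1065 and 1487 over all genes. The share called among these brighter genes was therefore larger than 14.1% and nearer to the members' 22.5%. The members' median was -0.10, against 0.007 over all genes. Without the arrays numbered 1 the count was 15 (37.5%), with 13 lower and 2 higher, and it held all 9, while 21.4% of all genes were called. All 9 were called in the same direction between the treated lines (40.9% of the 22), and those 2 comparisons share no arrays but use the same residual spread of each gene.

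Prednisolone raised several of these genes in control cells. WFS1, an ER membrane glycoprotein, was 3.09-fold higher in treated than in untreated control cells, CRELD2 1.62-fold and HSPA5 1.57-fold, whereas DERL3 was 1.91-fold lower. Of the 40 members 10 were higher and 2 lower (30%), while 14.2% of all genes were called, 5.73% higher and 8.43% lower. The median was 0.21, against -0.015 over all genes, and 33 of 40 lay above 0. Without the arrays numbered 1 the count was 19 (47.5%), with 15 higher and 4 lower, and 11 of the 12 were among them, while 21.9% of all genes were called. This comparison and that between the treated lines share the arrays of treated control cells, so their values are not independent of each other.

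In cells labelled CASP1 prednisolone changed 6 members, 3 in each direction. WFS1 was 1.93-fold, SEC11C 1.37-fold and CRELD2 1.24-fold higher in treated than in untreated cells, and DERL3 was 1.39-fold, EDEM1 1.37-fold and PDIA6 1.33-fold lower. These are 15% of the members, while 6.34% of all genes were called, 2.99% higher and 3.35% lower. The members' median of 0.03 was near that of all genes, 0.018. Without the arrays numbered 1 the same 6 members were called, but the share of all genes called was 11.9%, nearer to the members' 15%. WFS1, CRELD2, DERL3 and PDIA6 were called in the same direction in both lines, which is 66.7% of the 6 and 33.3% of the 12, and the 2 responses share no arrays. Over the 4 comparisons 25 members were called at least once and 15 never.

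**Figure D1:**
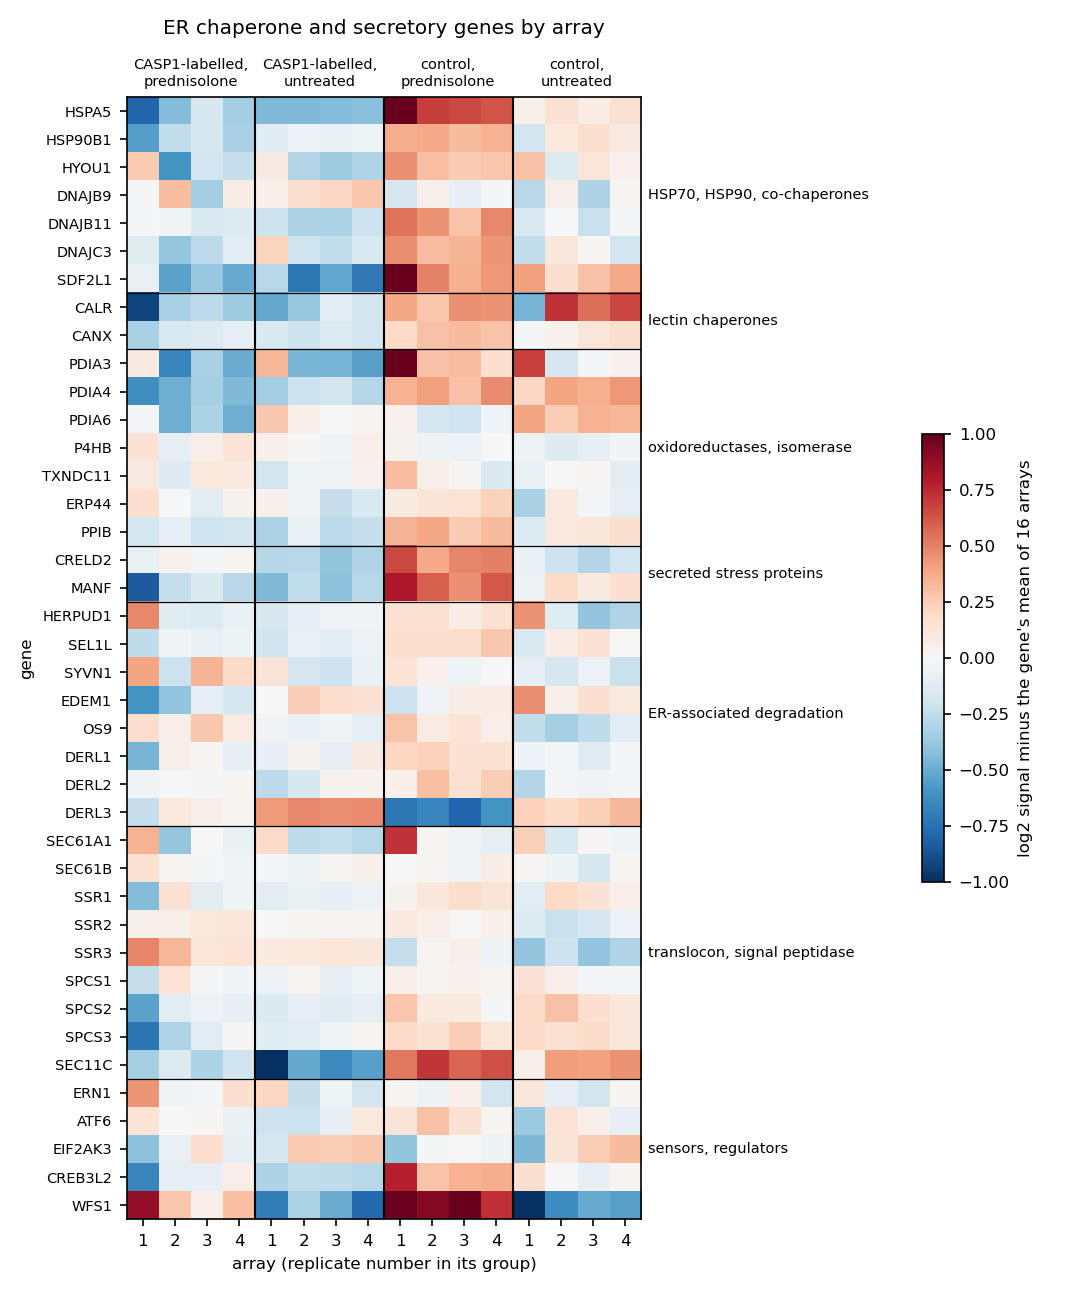
Log2 signal of the 40 measured genes (rows, grouped by role) on the 16 arrays (columns, numbered by replicate within their group), as the difference from the mean of the gene over all arrays, with colours capped at 1 in both directions. Most chaperone rows are red in treated control cells and blue in treated cells labelled CASP1, whereas DERL3 is blue in treated control cells, red in both untreated groups and near 0 in 3 of 4 arrays of treated cells labelled CASP1.

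The chaperones of the HSP70 and HSP90 type and their co-chaperones showed the line difference in treated cells in 6 of 7 genes, with a group median of -0.61. HSPA5 (chr9:125234853-125241343 in GRCh38.p14), the main ER chaperone and a brake on the stress sensors, had signals of 10.02, 10.38, 10.66 and 10.48 in treated cells labelled CASP1, and of 11.89, 11.51, 11.48 and 11.45 in treated control cells. Every array labelled CASP1 lay below every control array, and the difference was -1.19 (SE 0.12, adjusted p = 2.81e-06). Untreated cells labelled CASP1 had HSPA5 signals of 10.38, 10.38, 10.39 and 10.41, against 10.87, 10.98, 10.89 and 10.97 in untreated control cells. These groups did not overlap either (difference -0.54, adjusted p = 0.00439). HSPA5 was called for prednisolone in control cells (0.65, SE 0.12, adjusted p = 0.000676), whereas in cells labelled CASP1 the response was 0.00 with a 95% interval from -0.25 to 0.25. All 6 HSPA5 probe sets had the sign of the brightest between the treated lines, with differences from -1.64 to -1.03, and all 6 were called.

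HSP90B1 (chr12:103930410-103947926), the ER member of the HSP90 family, had signals of 11.10, 11.41, 11.48 and 11.33 in treated cells labelled CASP1, against 12.02, 12.03, 11.97 and 11.99 in treated control cells. Its difference between the treated lines was -0.67 (SE 0.092, adjusted p = 6.61e-05), and each of its 7 probe sets was called lower. In untreated cells labelled CASP1 the signals were 11.53, 11.59, 11.59 and 11.61, and in untreated control cells 11.46, 11.76, 11.81 and 11.74. These overlapped, and the untreated difference of -0.11 was not called (adjusted p = 0.532). HSP90B1 rose by 0.31 with prednisolone in control cells (adjusted p = 0.0288). That call ended without untreated control replicate 1 (0.23) or without any one of the 4 treated control arrays, with adjusted p up to 0.0987. In cells labelled CASP1 its response was -0.25 (adjusted p = 0.134).

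DNAJB11 and DNAJC3 are J-domain partners of HSPA5, and both rose with prednisolone in control cells. DNAJB11 had signals of 9.87, 9.77, 9.61 and 9.80 in treated control cells, against 9.17, 9.33, 9.11 and 9.31 in untreated control cells, so every treated array was above every untreated one (0.54, SE 0.081, adjusted p = 0.00013). In cells labelled CASP1 DNAJB11 had 9.31, 9.29, 9.17 and 9.19 with prednisolone and 9.12, 9.01, 9.01 and 9.12 without, a difference of 0.18 that was not called (adjusted p = 0.266). DNAJC3, which is also known as an inhibitor of the kinases that phosphorylate eIF2 alpha, rose by 0.47 in control cells (adjusted p = 0.00669), and its response in cells labelled CASP1 was -0.13 (adjusted p = 0.632). Between the treated lines DNAJB11 differed by -0.52 and DNAJC3 by -0.61, both called lower in cells labelled CASP1.

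SDF2L1, a partner of the HSPA5 and DNAJB11 complex, differed between the lines with and without treatment. Its signals were 7.92, 7.46, 7.62 and 7.49 in treated cells labelled CASP1, against 9.20, 8.49, 8.35 and 8.43 in treated control cells. Without treatment they were 7.71, 7.27, 7.48 and 7.28 in cells labelled CASP1, against 8.41, 8.16, 8.29 and 8.38 in control cells. Neither pair of groups overlapped, and the signal was 1.99-fold lower in treated (SE 0.16 on the log2 scale, adjusted p = 0.000305) and 1.83-fold lower in untreated cells labelled CASP1 (adjusted p = 0.00114). The SDF2L1 response to prednisolone in control cells was 0.31 and was not called. HYOU1, the large HSP70-type nucleotide exchange factor of HSPA5, was lower by -0.51 between the treated lines (adjusted p = 0.0224), but the groups overlapped. Of its 9 probe sets, 2 were called lower, with mean signals of 7.06 and 5.21, and 1 higher. The latter had a mean signal of 3.30, below the 3.84 that bounds the dimmest 30% of genes. The HYOU1 call ended without treated control replicate 1 (-0.47) or treated replicate 2 of cells labelled CASP1 (-0.38). DNAJB9, the J-domain protein that represses ERN1, was not called in any comparison, and its largest difference was 0.30, between the untreated lines (adjusted p = 0.117).

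Both lectin chaperones were lower in cells labelled CASP1 in both treatments. CANX, the membrane-bound calnexin, had 11.11, 11.28, 11.29 and 11.33 in treated cells labelled CASP1, against 11.63, 11.72, 11.74 and 11.72 in treated control cells. The groups were apart, the difference was -0.45 (SE 0.075, adjusted p = 0.000462), and all 9 CANX probe sets were called lower. CALR, the soluble calreticulin, was dim on its brightest probe set, with 4.31, 4.90, 4.97 and 4.87 in treated cells labelled CASP1 and 5.62, 5.51, 5.68 and 5.68 in treated control cells (difference -0.86, adjusted p = 0.00747). Without treatment CALR had 4.72, 4.85, 5.12 and 5.05 in cells labelled CASP1, against 4.76, 5.95, 5.78 and 5.90 in control cells, where replicate 1 fell among the arrays of the other line. The untreated differences were -0.66 for CALR (adjusted p = 0.0377) and -0.26 for CANX (adjusted p = 0.0293). The CALR call ended without any one of 6 arrays and the CANX call without any one of 5, with differences from -0.94 to -0.54 and from -0.29 to -0.22. Neither lectin was called for prednisolone in either line with all arrays.

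**Figure D2:**
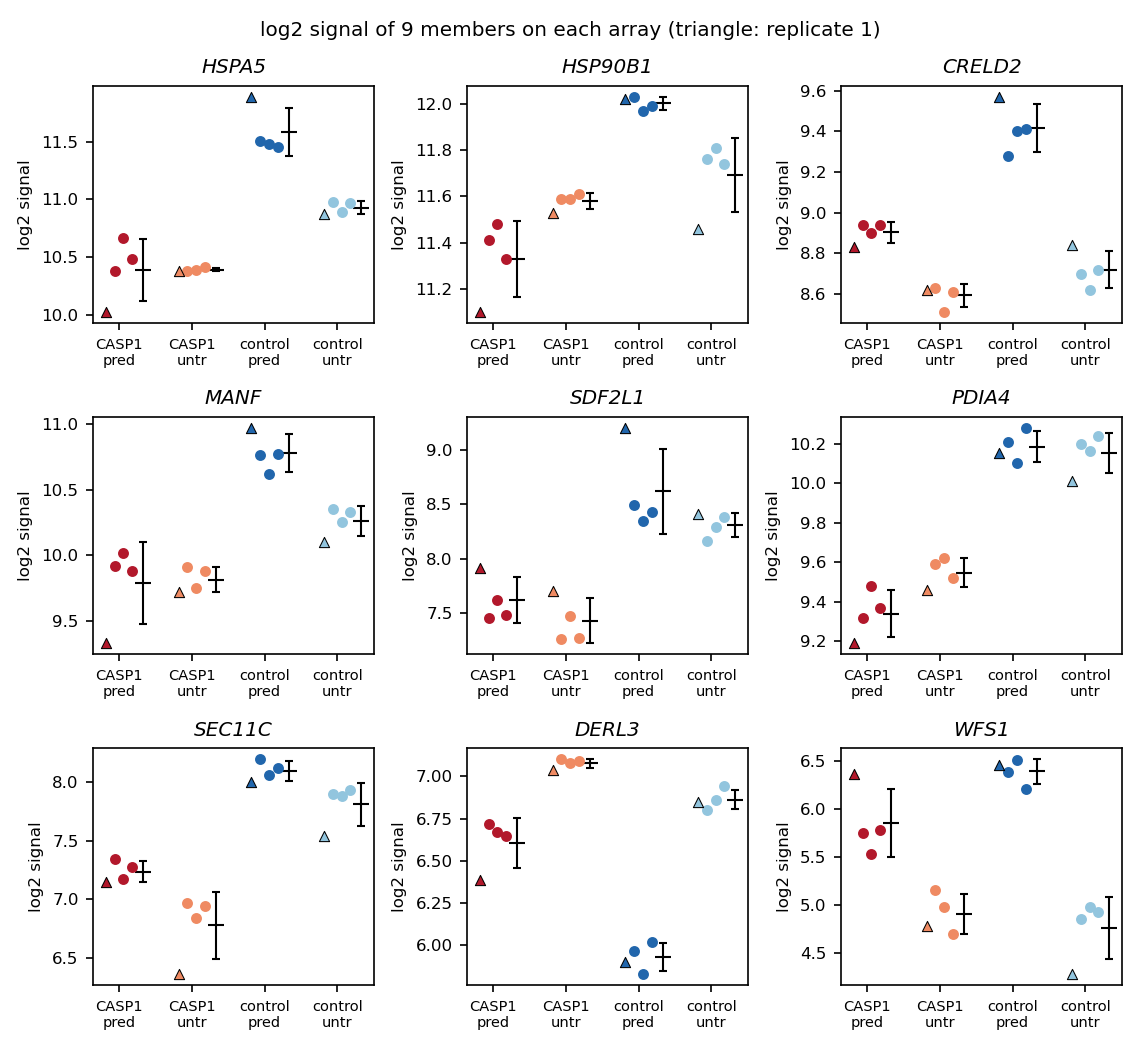
Log2 signal (vertical axes, each panel on its own range) of 9 genes in treated and untreated cells labelled CASP1 and in treated and untreated control cells, one point per array with triangles for replicate 1, and the mean with its SD (n = 4) beside the points. HSPA5, HSP90B1 and MANF are highest in treated control cells, PDIA4 and SEC11C separate by line, and DERL3 and WFS1 separate by treatment in both lines.

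Among the oxidoreductases and the prolyl isomerase, PDIA4 separated the lines in both treatments. PDIA4, a disulfide isomerase with several thioredoxin domains, had 9.19, 9.32, 9.48 and 9.37 in treated cells labelled CASP1, against 10.15, 10.21, 10.10 and 10.28 in treated control cells (difference -0.85, SE 0.083, adjusted p = 2.54e-06). Untreated cells labelled CASP1 had 9.46, 9.59, 9.62 and 9.52, against 10.01, 10.20, 10.16 and 10.24 in untreated control cells (difference -0.61, adjusted p = 7.51e-05). No array of one line reached the range of the other, and all 3 PDIA4 probe sets were called lower with and without treatment. With prednisolone PDIA4 moved by -0.21 in cells labelled CASP1 and by 0.03 in control cells, neither called.

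PDIA6, which reduces disulfides and dampens the ERN1 sensor, was one of few members that fell with prednisolone. It had 11.21, 10.74, 10.91 and 10.74 in treated cells labelled CASP1, against 11.50, 11.27, 11.23 and 11.24 in untreated cells labelled CASP1. Treated control cells had 11.27, 11.05, 11.03 and 11.19, against 11.62, 11.47, 11.58 and 11.55 in untreated control cells. Treated arrays lay below all untreated arrays of their line, with differences of -0.41 (adjusted p = 0.0235) and -0.42 (adjusted p = 0.00991). The call in cells labelled CASP1 ended without untreated replicate 1 (-0.35) or treated replicate 2 or 4 (-0.36 each) of cells labelled CASP1.

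PPIB, the ER cyclophilin, was lower in cells labelled CASP1 by -0.49 with prednisolone (adjusted p = 0.00049) and by -0.28 without (adjusted p = 0.0271), and rose by 0.26 in control cells (adjusted p = 0.0385). The last call ended without any one of 9 arrays (0.20 to 0.30, adjusted p up to 0.125), and the untreated one without any one of 6 (-0.35 to -0.25). PDIA3, the isomerase that works with the lectins, had 9.03, 8.29, 8.62 and 8.45 in treated cells labelled CASP1 and 10.16, 9.24, 9.26 and 9.11 in treated control cells, with replicate 1 the highest in each. Its difference of -0.84 (adjusted p = 0.0231) was -0.60 without treated control replicate 1 (adjusted p = 0.0803), and the call also ended without treated replicate 2 (-0.74) or 4 (-0.79) of cells labelled CASP1. PDIA3 differed by -0.42 between the untreated lines and had a control response of 0.36, neither called. Without the arrays numbered 1 both were called, at -0.44 (adjusted p = 0.00285) and 0.30 (adjusted p = 0.0264). The other PDIA3 probe set, with a mean signal of 5.69, was called lower in untreated cells labelled CASP1 (-0.63, limma, adjusted p = 0.0111). P4HB, the archetypal disulfide isomerase, ERP44, which retrieves client proteins from the Golgi, and TXNDC11 were called in no comparison, with differences between the treated lines of 0.08, -0.12 and -0.02. Of the 4 ERP44 probe sets, 1 with a mean signal of 5.91 was called higher in untreated cells labelled CASP1 (0.33, limma, adjusted p = 0.0495).

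Both secreted stress proteins rose with prednisolone in control cells and were lower in treated cells labelled CASP1. MANF, a neurotrophic factor that is held in the ER by HSPA5, had 9.33, 9.92, 10.02 and 9.88 in treated cells labelled CASP1, against 10.97, 10.76, 10.62 and 10.77 in treated control cells. Untreated cells labelled CASP1 had 9.72, 9.91, 9.75 and 9.88, against 10.10, 10.35, 10.25 and 10.33 in untreated control cells. The 2 lines did not overlap in either treatment, with differences of -0.99 (SE 0.13, adjusted p = 3.09e-05) and -0.44 (adjusted p = 0.0237). MANF rose by 0.52 in control cells (adjusted p = 0.00742), and its response in cells labelled CASP1 was -0.03. The untreated call ended without any one of 5 arrays, with differences from -0.49 to -0.41.

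CRELD2, a secreted target of the unfolded protein response, rose in both lines. It had 8.83, 8.94, 8.90 and 8.94 in treated cells labelled CASP1, against 8.62, 8.63, 8.51 and 8.61 in untreated cells labelled CASP1 (0.31, SE 0.079, adjusted p = 0.0244). Treated control cells had 9.57, 9.28, 9.40 and 9.41, against 8.84, 8.70, 8.62 and 8.72 in untreated control cells (0.70, adjusted p = 5.16e-06). All treated arrays were above the untreated ones of their line. The call in cells labelled CASP1 ended without any one of 5 arrays of that line (0.28 to 0.33). The other CRELD2 probe set was dim, with a mean signal of 3.02 against 8.91 for the brightest, and had a control response of -0.10. The mean of both probe sets gave 0.30 in control cells (adjusted p = 0.065).

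Genes of ER-associated degradation moved in different directions. DERL3 (chr22:23834503-23839006), a derlin of the retrotranslocation complex that is known to be induced by stress, had 6.39, 6.72, 6.67 and 6.65 in treated cells labelled CASP1, against 7.04, 7.10, 7.08 and 7.09 in untreated cells labelled CASP1. It had 5.90, 5.97, 5.83 and 6.02 in treated control cells, against 6.85, 6.80, 6.86 and 6.94 in untreated control cells. DERL3 thus fell in both lines without overlap, by -0.47 (SE 0.082, adjusted p = 0.00139) and by -0.93 (adjusted p = 2.75e-07). In treated cells it was higher in cells labelled CASP1 by 0.68 (adjusted p = 2.17e-05), and all 4 of its probe sets were above 0 there, 2 of them called.

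EDEM1, a lectin that extracts misfolded glycoproteins, fell by -0.46 with prednisolone in cells labelled CASP1 (adjusted p = 0.0247), with 10.37, 10.58, 10.88 and 10.80 in treated against 10.98, 11.22, 11.15 and 11.12 in untreated arrays. That call ended without any one of 5 arrays of the line (-0.53 to -0.36), and the EDEM1 response in control cells was -0.22 (adjusted p = 0.29). Its difference between the treated lines was -0.29 and not called. Without the arrays numbered 1 that difference was -0.26 and called (adjusted p = 0.0372). OS9, another lectin of this pathway, rose by 0.38 in control cells (adjusted p = 0.00279), with 7.50, 7.29, 7.34 and 7.27 in treated against 6.96, 6.88, 6.95 and 7.10 in untreated arrays. Only the brightest of the 6 OS9 probe sets was called. SEL1L, the adaptor of the ligase SYVN1, and DERL1 were lower in treated cells labelled CASP1 than in treated control cells, by -0.30 and -0.31 (adjusted p = 0.0178 and 0.0389). The SEL1L call ended without treated control replicate 4 (adjusted p = 0.0557) and that of DERL1 without any one of 7 arrays (-0.37 to -0.20). DERL1 was called on 1 of its 3 probe sets, and another, with a mean signal of 7.96, differed by 0.14. HERPUD1, SYVN1 and DERL2 were called in no comparison with all arrays, and SYVN1 had the largest response of an uncalled member in cells labelled CASP1, 0.26. The other SYVN1 probe set, with a mean signal of 3.61, was called lower with prednisolone in control cells (-0.28, limma, adjusted p = 0.0417). The control response of HERPUD1 was 0.22, and without the arrays numbered 1 it was 0.40 and called (adjusted p = 0.00153), as it was without untreated control replicate 1 alone. DERL2 was called in control cells under 10 of 25 alternatives, with responses from 0.21 to 0.33. Both were also called lower between the treated lines without the arrays numbered 1, at -0.23 each (adjusted p = 0.0404 for HERPUD1 and 0.0346 for DERL2).

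**Figure D3:**
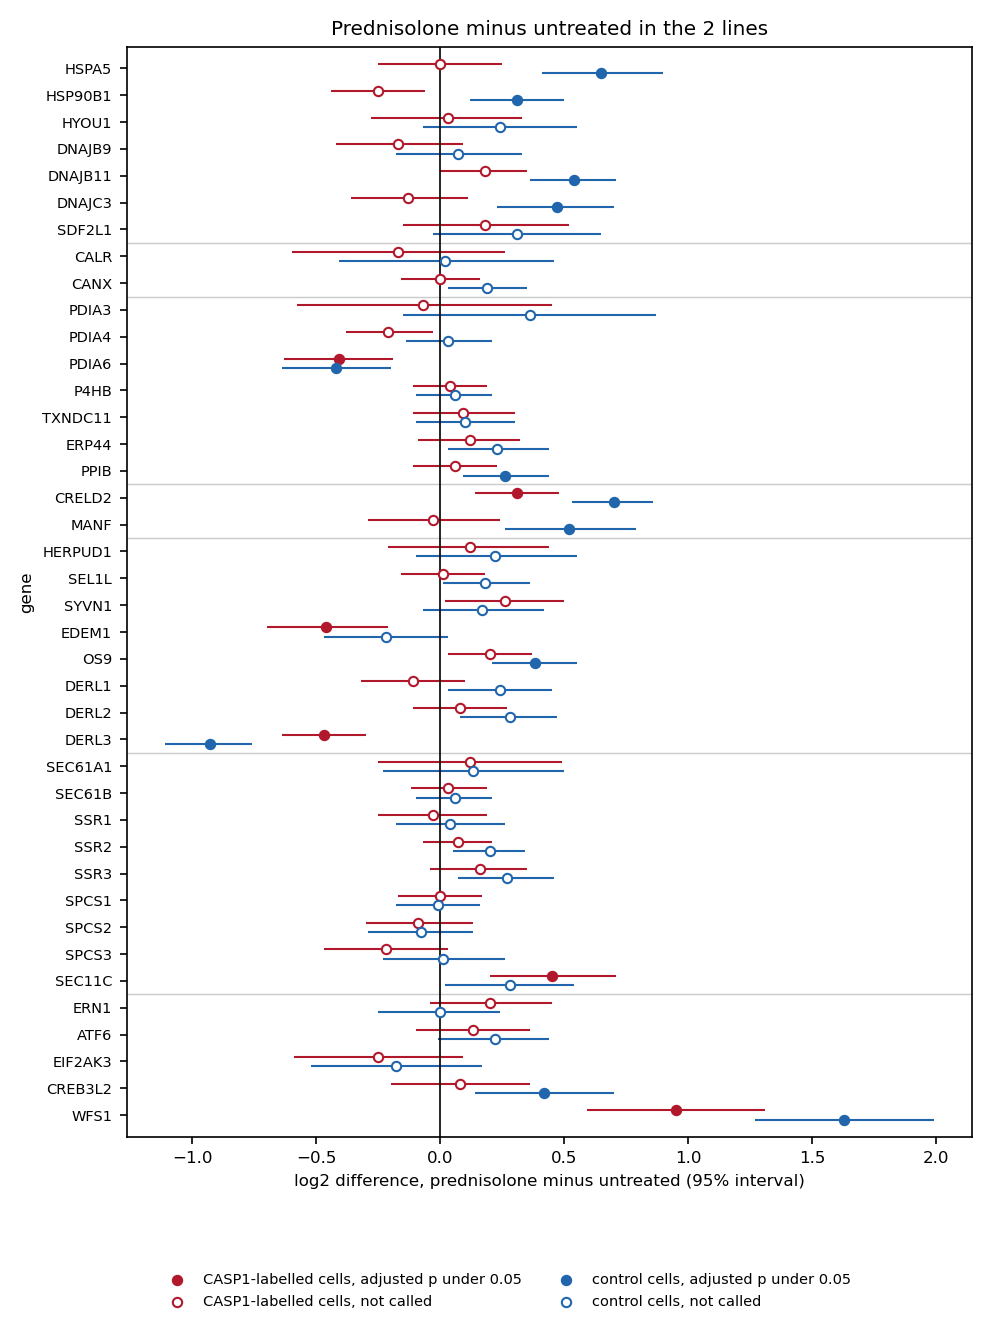
Log2 difference between prednisolone and untreated arrays (horizontal axis, with the 95% interval of the fit) for each gene, in cells labelled CASP1 (red, upper) and control cells (blue, lower), filled where called. Filled blue points lie mostly right of 0, up to 1.63 for WFS1, and DERL3 lies left of 0 in both lines.

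In the translocon and signal peptidase group, SEC11C, a catalytic subunit of signal peptidase, carried the largest difference. It had 7.15, 7.34, 7.17 and 7.28 in treated cells labelled CASP1, against 8.0, 8.20, 8.06 and 8.12 in treated control cells. Without treatment it had 6.36, 6.97, 6.84 and 6.94 in cells labelled CASP1, against 7.54, 7.90, 7.88 and 7.93 in control cells. The lines were apart in both treatments, by -0.86 (SE 0.12, adjusted p = 0.000101) and -1.03 (adjusted p = 1.74e-05). On the second SEC11C probe set, which was dim with a mean signal of 3.03, the differences were -0.35 and -0.17. SEC11C also rose with prednisolone in cells labelled CASP1 (0.45, adjusted p = 0.0326), a call that ended without any one of 5 arrays of that line (0.32 to 0.52), and had a response of 0.28 in control cells (adjusted p = 0.162).

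SSR3, a subunit of the translocon-associated protein complex, was the member called higher in cells labelled CASP1 in both treatments. It had 9.50, 9.51, 9.53 and 9.51 in untreated cells labelled CASP1, against 9.01, 9.20, 9.01 and 9.10 in untreated control cells, without overlap (0.43, SE 0.093, adjusted p = 0.00374). All 4 SSR3 probe sets were called higher there, by 0.43 to 1.32. With prednisolone in control cells the brightest SSR3 probe set had a response of 0.27 that was not called, while the other 3 were called higher, at 0.68, 1.09 and 1.39, and the mean of the 4 rose by 0.86 (adjusted p = 0.00332). Between the treated lines the difference was 0.32 (adjusted p = 0.0222), but the 4 probe sets spread from -0.18 to 0.32, and the call ended without treated control replicate 1 (0.26) or treated replicate 1 (0.25) or 2 (0.30) of cells labelled CASP1, and without the arrays numbered 1 together (0.19, adjusted p = 0.1). The signal peptidase subunits SPCS2 and SPCS3 were lower in treated cells labelled CASP1, by -0.31 and -0.45 (adjusted p = 0.0431 and 0.0122). SPCS3 was called lower on 2 of its 3 probe sets, and the other, with a mean signal of 8.34, differed by 0.18 and was not called. The SPCS2 call ended without any one of 9 arrays (-0.36 to -0.20) and without the arrays numbered 1 together (-0.14). The channel subunits SEC61A1 and SEC61B, and SSR1, SSR2 and SPCS1, were called in no comparison on their brightest probe sets, with differences between the treated lines from -0.22 to 0.03. Of the 8 SSR1 probe sets, 1 with a mean signal of 5.88 was called higher in cells labelled CASP1. Its difference was 0.97 with prednisolone (limma, adjusted p = 0.00242) and 0.64 without (adjusted p = 0.0399).

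The 3 sensors of the unfolded protein response were called in no comparison with all arrays. ERN1, the kinase and nuclease that splices XBP1, had responses of 0.20 in cells labelled CASP1 and -0.00 in control cells, ATF6 0.13 and 0.22, and EIF2AK3, also called PERK, -0.25 and -0.18. Without the arrays numbered 1 EIF2AK3 was called lower with prednisolone in control cells (-0.25, adjusted p = 0.0393). The transcript level says nothing about their activation, which is known to run through the proteins. CREB3L2, a membrane-bound transcription factor related to ATF6, was lower by -0.63 in treated cells labelled CASP1 (adjusted p = 0.00322), with 6.63, 7.21, 7.21 and 7.37 against 8.07, 7.58, 7.64 and 7.66 in treated control cells. Of its 7 probe sets 2 had that sign, and the mean of the 7 differed by -0.00 (adjusted p = 0.99). The brightest had a mean signal of 7.30, and the others were dim, at 2.37 to 4.17. CREB3L2 rose by 0.42 with prednisolone in control cells (adjusted p = 0.0451), and this call ended without any one of 12 arrays (0.31 to 0.47).

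WFS1 (chr4:6269850-6303265), which is linked to ER calcium and to a hereditary form of diabetes, had the largest rise of the 40 genes in both lines. It had 6.36, 5.75, 5.53 and 5.78 in treated cells labelled CASP1, against 4.78, 5.16, 4.98 and 4.70 in untreated cells labelled CASP1. Treated control cells had 6.46, 6.39, 6.51 and 6.21, against 4.28, 4.86, 4.98 and 4.93 in untreated control cells. Every treated array was above every untreated array of its line, by 0.95 (SE 0.17, adjusted p = 0.00167) and 1.63 (SE 0.17, adjusted p = 2e-06) on average. The untreated means, 4.91 in cells labelled CASP1 and 4.76 in control cells, lay below the median gene (5.48). WFS1 was read on 1 probe set, as were SDF2L1, MANF and DNAJB11, so agreement between probe sets could not be checked for them. In treated cells WFS1 was lower in cells labelled CASP1 by -0.53 (adjusted p = 0.0385), where replicate 1 lay within the control range, and this call ended without any one of 6 arrays (-0.70 to -0.43).

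**Figure D4:**
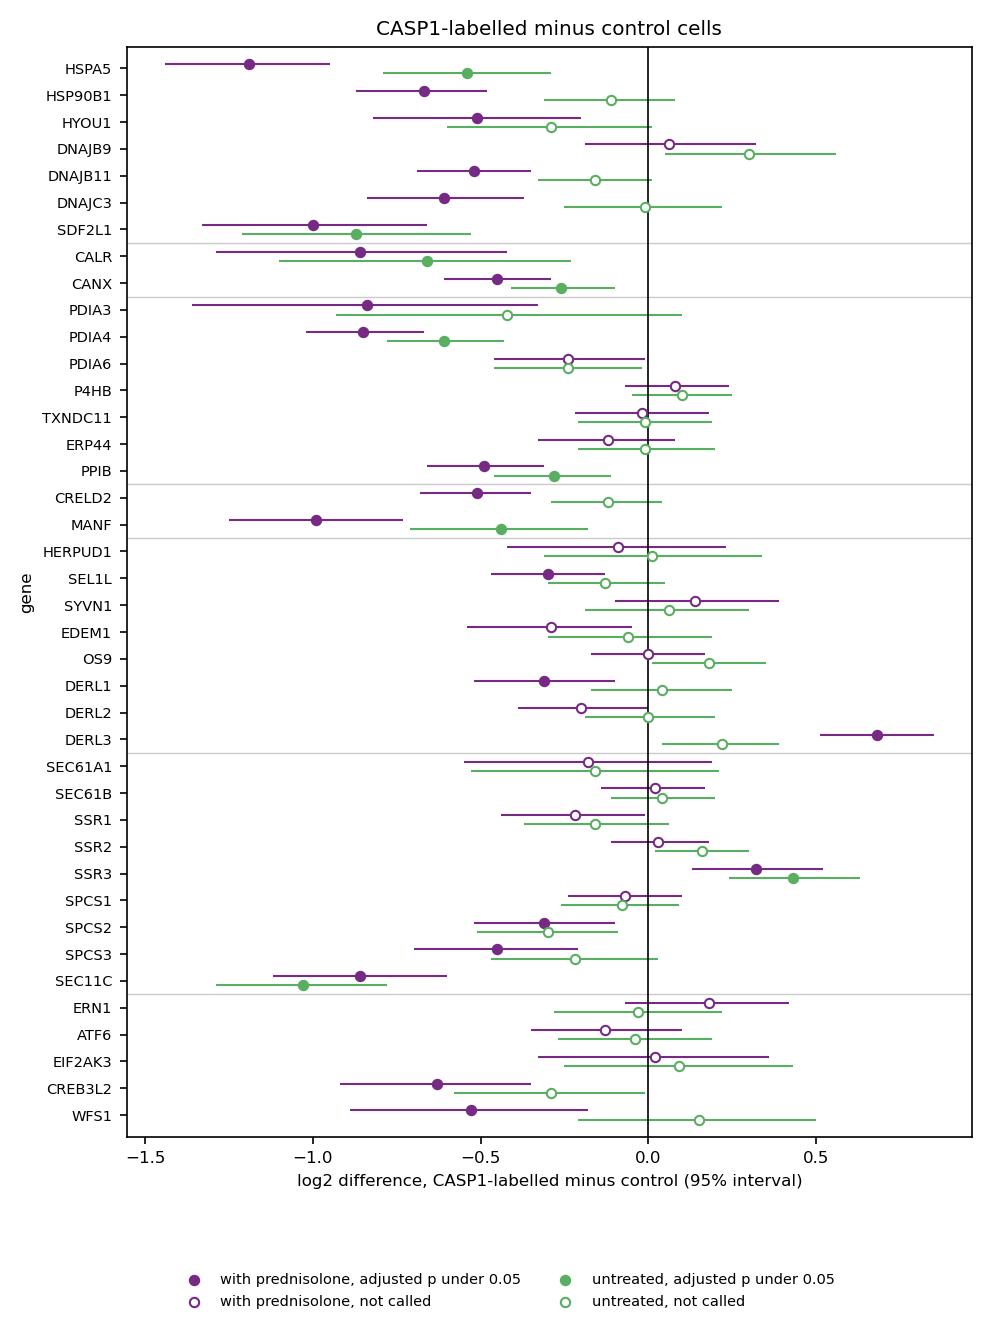
Log2 difference between cells labelled CASP1 and control cells (horizontal axis, with the 95% interval of the fit) for each gene, with prednisolone (purple, upper) and untreated (green, lower), filled where called. Most filled purple points lie left of 0, down to -1.19 for HSPA5, with DERL3 and SSR3 on the right.

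The members with a first-type element in their window can be set beside the rest. Between the treated lines all 5 were called lower in cells labelled CASP1, with a median of -0.67, while of the 31 other members with a window 13 were lower and 1 was higher, with a median of -0.22. In control cells 3 of the 5 rose with prednisolone (HSPA5, HSP90B1 and CRELD2), and 7 of the 31 others rose and 1 fell. In cells labelled CASP1 only CRELD2 of the 5 was called for prednisolone. Over all 9 members with a match to any of the 3 motifs, 7 were lower between the treated lines, with a median of -0.51, while HERPUD1 (-0.09) and TXNDC11 (-0.02) were not called. PDIA6, with a first-type element at another start, was not called there either (-0.24). SSR3, with the core TGACGTGG at another start, was called higher between the treated lines (0.32). The elements were shown because members lower between the treated lines hold them, so that comparison gives no independent support for a link. These are counts of small groups, and the difference between them was not tested.

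The interaction compares the prednisolone responses of both lines, as the response of cells labelled CASP1 minus that of control cells. The largest values were -0.68 for WFS1 and -0.65 for HSPA5, followed by -0.59 for DNAJC3, -0.56 for HSP90B1 and -0.55 for MANF, and the largest above 0 was 0.46 for DERL3. No member passed limma's test over all genes, in which 0.888% of genes were called, 0.524% higher and 0.364% lower. The smallest adjusted p-values were 0.0504 for HSP90B1 and 0.0792 for DERL3, with 0.0844 for HSPA5. At an unadjusted p under 0.05 there were 9 of 40 members, against 10.3% of all genes. Of the members 34 lay below 0, with a median of -0.17, while the median of all genes was 0.034 and 57.4% of all genes lay above 0. The value for HSPA5 had the same sign on all 6 of its probe sets, from -0.82 to -0.54, and that for HSP90B1 on all 7.

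The interaction depended on the arrays numbered 1. Without those 4 arrays the share of all genes called was 4.01%, and 5 members (12.5%) were called: HSPA5 at -0.41 (adjusted p = 0.0476), HSP90B1 at -0.42 (adjusted p = 0.0208), HERPUD1 at -0.46 (adjusted p = 0.0302), WFS1 at -0.70 (adjusted p = 0.0291) and DERL3 at 0.52 (adjusted p = 0.0107). The sizes for HSPA5 and HSP90B1 were smaller than with all arrays. HERPUD1, an ER membrane protein that recruits the degradation ligases, had -0.11 with all arrays, since its replicate 1 was high in treated cells labelled CASP1 (8.89) and in untreated control cells (8.86). Leaving out treated replicate 1 alone or treated replicate 3 alone of cells labelled CASP1 gave 2 calls each, and leaving out any other single array gave 0.

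**Figure D5:**
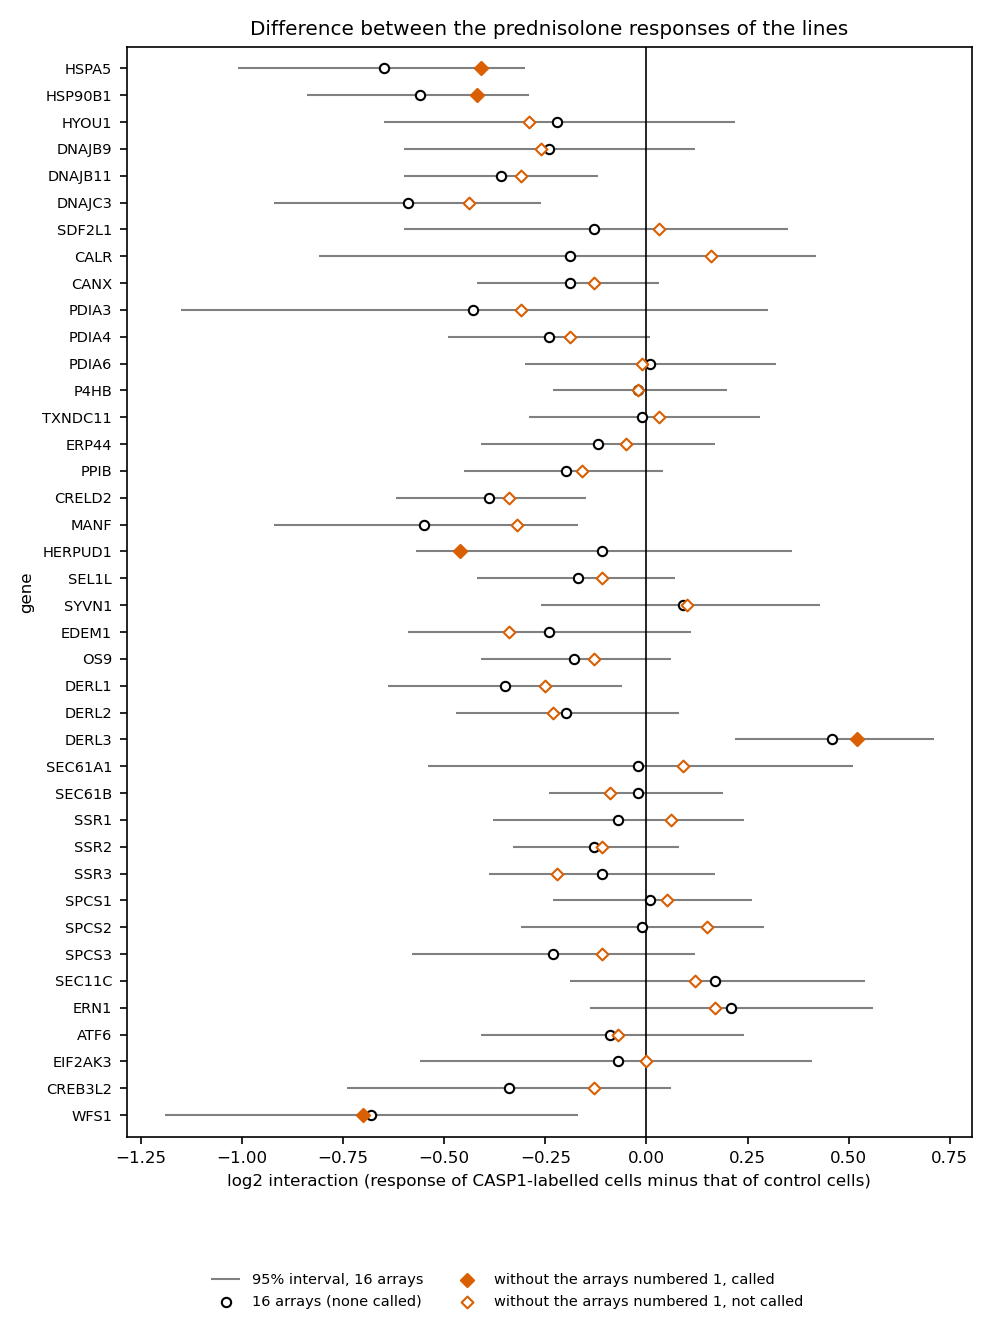
Log2 interaction (horizontal axis, response of cells labelled CASP1 minus that of control cells) for each gene, as circles with the 95% interval for all 16 arrays and as orange diamonds without the arrays numbered 1, filled where called. Of the 40 circles 34 lie left of 0 and none is called, and 5 diamonds are filled.

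Other genes of the secretory pathway, taken as lists by function, had medians between the treated lines from -0.10 to 0.10. From 10.5% to 37.5% of the genes of a list were called there, while 16.4% of all genes were. Of 25 further folding enzymes, 4 were lower and 1 higher in treated cells labelled CASP1 than in treated control cells (20%), with a median of 0.03. The lower ones included DNAJC10, an ER reductase, at -0.76 and UGGT1, which returns misfolded glycoproteins to the lectins, at -0.68. The UGGT1 difference was -0.39 without treated replicate 1 of cells labelled CASP1, and its call ended without treated control replicate 1, 2 or 3. Of 19 further degradation genes 2 were lower there (10.5%), SELENOS at -0.50 and HM13 at -0.49. Of 16 further translocation and signal recognition genes 4 were lower (25%), led by SRPRB, a subunit of the signal recognition particle receptor, at -0.50 and TRAM1 at -0.42, whose call ended without any one of 4 arrays (-0.53 to -0.29). Of 12 genes of the oligosaccharyltransferase, which adds sugars to entering proteins, 3 were lower (25%), with the catalytic subunit STT3B at -0.38. Of 33 genes of coat vesicles and cargo receptors 2 were higher and 2 lower (12.1%), and KDELR1, the receptor that returns chaperones to the ER, was higher by 0.52 (adjusted p = 0.0018).

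The factors that control the pathway were mostly not called. Of 17 transcription factors and outputs of the unfolded protein response, XBP1 was lower and PPP1R15B, a phosphatase subunit that ends the translation block, higher in treated cells labelled CASP1 (11.8%). XBP1 signals were 10.23, 10.50, 10.47 and 10.53 in treated cells labelled CASP1, against 10.95 to 11.06 in treated control cells. Without treatment they were 10.17, 10.30, 10.31 and 10.34 in cells labelled CASP1, against 10.59, 10.96, 10.87 and 10.91 in control cells. The groups did not overlap, with differences of -0.58 (adjusted p = 0.00028) and -0.55 (adjusted p = 0.00051), and XBP1 was not called for prednisolone in either line (0.16 in cells labelled CASP1 and 0.19 in control cells). The arrays do not separate spliced from unspliced XBP1 here.

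With prednisolone, only TRIB3, a pseudokinase induced by the ATF4 branch, was called among these 17 in control cells (-0.92, or 5.88% of the list against 14.2% of all genes), and none in cells labelled CASP1, where 1 of 17 had an unadjusted p under 0.05 in limma. The TRIB3 value was -0.57 without untreated control replicate 1 (adjusted p = 0.0907), and its call also ended without any one of the 4 treated control arrays. Of the further folding enzymes 5 fell in control cells and 0 rose (20%), among them FKBP11 at -0.80 and TXNDC12 at -0.67, and in cells labelled CASP1 only TXNDC12 was called (-0.45). The catalytic oligosaccharyltransferase subunits STT3A and STT3B fell in control cells, by -0.45 and -0.32. Further degradation genes went the other way in control cells, where 2 of 19 rose and 0 fell (10.5%), RNF139 by 0.46 and SELENOS by 0.39. Among 33 genes of coat vesicles and cargo receptors 2 rose and 1 fell there (9.09%). Among 16 further translocation and signal recognition genes 1 rose and 0 fell (6.25%). These shares were below the 14.2% of all genes.

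Of 16 genes of the secretory B cell, 3 rose with prednisolone in cells labelled CASP1 and 4 rose and 2 fell in control cells, which is 18.8% and 37.5% of the list against 6.34% and 14.2% of all genes. PRDM1, the transcription factor of plasma cell differentiation, rose by 3.82 in cells labelled CASP1 and by 3.91 in control cells. IRF4, which acts with it, rose by 0.56 and 0.70, and ELL2, an elongation factor of secretory immunoglobulin mRNA, by 0.67 and 0.60. In control cells SDC1, a plasma cell marker, also rose (0.76), a call that ended without any one of 4 arrays. The 2 that fell there were FKBP11 (-0.80) and IGLL1, a B-precursor marker (-0.32). The IRF4 call in cells labelled CASP1 ended without any one of 5 arrays of that line (0.48 to 0.64). MZB1, an ER cochaperone of antibody assembly, was lower in cells labelled CASP1 in both treatments, with group means of 8.48 in treated and 8.47 in untreated cells labelled CASP1, against 9.62 in treated and 9.49 in untreated control cells. Its differences were -1.14 between the treated lines and -1.01 between the untreated lines. The list of 16 had 4 genes lower and 2 higher in treated cells labelled CASP1 (37.5%, against 16.4% of all genes). The higher ones were ELL2 (0.51) and IGHM (0.33), whose calls each ended without any one of 3 arrays. In untreated cells labelled CASP1 4 were lower and 1 higher, SDC1 by 1.19 (31.2%, against 14.1% of all genes). The mean signal of the 8 measured plasma cell markers ranged over arrays from 7.41 to 7.65 in treated and 6.91 to 7.01 in untreated cells labelled CASP1, against 7.32 to 7.57 in treated and 6.70 to 6.83 in untreated control cells. Of the 8, 2 were called higher with prednisolone in cells labelled CASP1 (25%) and 3 in control cells (37.5%), and 0 lower, against 6.34% and 14.2% of all genes called. Without PRDM1 the mean of the other 7 lay between 7.37 and 7.56 in treated and 7.31 and 7.44 in untreated cells labelled CASP1, against 7.33 to 7.56 in treated and 7.04 to 7.31 in untreated control cells. The part of these markers in the changes of the ER genes was not tested.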

How the data were processed

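The values are log2 probe set signals that the authors made with RMA, per the submitters' processing notes, and deposited as 1 table of 16 Affymetrix PrimeView arrays, with 0 columns of no sample. The sources used here do not give the RMA version. Because RMA equalises the arrays, a change in RNA content per cell would not be seen. The platform annotation named the probe sets (44988 with 1 gene, 1832 with several, 2473 with none, 102 controls), and the brightest over 16 arrays stood for each gene.

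All 16 arrays were fitted as 4 group means with limma 3.58.1 under R 4.3.3 (12 residual and 5.46 prior degrees of freedom, median residual SD 0.167). Tests were two-sided, with Benjamini-Hochberg adjustment over 18132 genes, and the fit was tested on simulated data. Members, lists, tests and alternatives were chosen with earlier results of these data known. The text names all members called in a comparison, the 2 uncalled members with the largest difference, members of a described role group, up to 4 called genes of each pathway list, and CASP1 and NR3C1. For prednisolone in control cells it names all 6 called genes of the secretory B-cell list.

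The labels give no batch, so no block entered the main fit, and the replicate number as a block was kept as an alternative. The alternatives were repeated quantile normalization, median and 75th percentile centring, leaving out the dimmest 30% of genes, the mean of a gene's probe sets, trend and robust moderation, the compared groups alone, a replicate block, and leaving out each array or the 4 arrays numbered 1. Leaving out arrays for the list genes, and PRDM1 from the plasma cell markers, was added after seeing the data. Promoters were searched with Python 3.11.15 (27305 windows of 300 bases, 1 per gene).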

Additional observations from a re-analysis of the deposited data

Results flagged for a closer look

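In 20 of 160 groups of 4 arrays, 1 array of a member lay far from the other 3, with a gap to its neighbour above Dixon's 95% limit, where chance gives about 1 in 20 groups, or 8. Of these, 17 were arrays numbered 1. Several lay in treated control cells, where replicate 1 had 11.89 for HSPA5, 10.16 for PDIA3, 9.12 for SEC61A1 and 8.07 for CREB3L2, all above the other 3 arrays, and 8.88 for EIF2AK3, below them. In untreated cells labelled CASP1 replicate 1 was above the rest for HYOU1 (7.15), PDIA3 (9.28), PDIA6 (11.50) and SEC61A1 (8.59), and below it for EIF2AK3 (9.10). Treated replicate 1 of cells labelled CASP1 was low for CALR (4.31) and SPCS2 (9.75) and high for HERPUD1 (8.89). Untreated control replicate 1 was low for CALR (4.76), DERL2 (8.13), SEC11C (7.54) and WFS1 (4.28). The other 3 were treated replicate 2 of cells labelled CASP1 for TXNDC11 (6.08), and treated control replicates 3 for HERPUD1 (8.48) and 4 for SEL1L (9.34). No member's difference between the 2 prednisolone responses passed limma's test over all genes, and 9 of 40 had an unadjusted p under 0.05.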

How the results depend on the processing

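Calls of members depended on single arrays for genes near the threshold. Of the members called, 2 of 6 were called under every alternative for prednisolone in cells labelled CASP1, 7 of 12 in control cells, 12 of 22 between the treated lines and 5 of 9 between the untreated lines. Under at least 1 alternative 1, 9, 5 and 7 further members were called in these comparisons, and 5 for the interaction. For prednisolone in cells labelled CASP1 the count of 6 was 2 with probe sets of a gene averaged and 2 with only the compared groups in the fit, and 3 to 6 when 1 array was left out. For prednisolone in control cells the count of 12 was 19 without the 4 arrays numbered 1, and 9 to 16 when 1 array was left out. Between the untreated lines the count of 9 was 15 without those 4 arrays and 5 to 12 when 1 array was left out. It was 5 without untreated control replicate 3 or 4. Between the treated lines the count of 22 ranged from 16 to 22 without 1 array. For the interaction the count of 0 was 1 after repeated quantile normalization, median centring, 75th percentile centring or leaving out the dimmest 30% of genes, 2 with trend and robust moderation, 5 without the arrays numbered 1, and 0 to 2 without 1 array. With the replicate number as a block there were 6 calls for prednisolone in cells labelled CASP1, 14 in control cells, 22 between the treated lines, 11 between the untreated lines and 1 for the interaction. Deviations of same-numbered arrays correlated at 0.19 to 0.51 for number 1 and at -0.12 to 0.26 for the others, and 8 of 16 arrays correlated best with their own number. CALR reversed to -0.25 with prednisolone in control cells without the arrays numbered 1 (adjusted p = 0.0494), and CREB3L2 to 0.20 between the untreated lines when its probe sets were averaged (adjusted p = 0.04). Leaving out arrays for the list genes, and PRDM1 from the plasma cell list, was chosen after seeing the data. The causes were not tested.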

Other observations

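Some markers of the B lineage also differed between the groups, beside the ER genes. Of 11 measured B-precursor markers, MME (-0.84), DNTT (-0.53) and BLNK (-0.28) fell with prednisolone in cells labelled CASP1 (27.3%, against 6.34% of all genes called). In control cells CD22 (-0.89), BLNK (-0.36) and IGLL1 (-0.32) fell (27.3%, against 14.2% of all genes), and 0 rose in either line (limma, adjusted p under 0.05). Without treated replicate 1 of cells labelled CASP1, the low array for both, MME fell by -0.53 and DNTT by -0.34, and both were still called. The DNTT call ended without untreated replicate 1 or 4 of that line, and the calls of BLNK in cells labelled CASP1 and of IGLL1 in control cells each ended without any one of 5 arrays. In control cells MME had a response of -0.49 that was not called (adjusted p = 0.118), although every treated array (11.58 to 11.65) lay below every untreated one (12.05 to 12.18). Between the treated lines BLNK, an adaptor of the B-cell receptor, was lower by -0.45 and VPREB1, a surrogate light chain, by -0.31 in cells labelled CASP1. These 2 are 18.2% of the 11, near the 16.4% of all genes called. Between the untreated lines CD22, an inhibitory receptor, was lower by -0.72, BLNK by -0.52 and VPREB1 by -0.35 (27.3%, against 14.1% of all genes). Of 8 plasma cell markers, TNFRSF17, a survival receptor of plasma cells, was higher in cells labelled CASP1 by 1.08 with and 1.60 without treatment. SDC1, a surface proteoglycan of plasma cells, was higher by 1.19 without treatment, while XBP1 and MZB1 were lower in both. These calls are 37.5% of the 8 with and 50% without treatment, against 16.4% and 14.1% of all genes.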
